A study of Mus musculus with 4 samples.

Results

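The neurotrophic factors of the nerve and their receptors were examined as 9 genes: the ligands Bdnf, Ntf3, Gdnf, Artn, Cntf and Lif and the receptors Ngfr, Gfra1 and Gfra3. They were chosen by symbol, as the rows listed under these names in both deposited tables, and all 9 were found among 21965 genes with usable rows. The values are FPKM, fragments normalised to transcript length and library size, from sciatic nerve RNA of mice at postnatal day 7. The labels give pooled nerves, a mixed strain background and the genotypes Control and Zeb2 cKO (conditional knockout of the zinc finger transcription factor Zeb2), with 2 samples for each genotype. They name neither the Cre driver, nor the deleted exons, nor the alleles that the controls carry. Each genotype has 1 table, listed under both of its samples, which was treated as 1 library and stands for its group. There is thus no replicate behind any value, no difference between genotypes was tested, and differences are described by size. Intervals are 95% counting intervals on estimated reads and cover counting error only.

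Neurotrophic factors are secreted proteins that keep neurons alive and guide their axons. The neurotrophins, among them Bdnf, Ntf3 and Ntf5, bind Trk receptor kinases and the shared receptor p75, encoded by Ngfr. Ligands of the GDNF family bind a Gfra co-receptor that is anchored in the membrane by lipid and engages the kinase Ret, while Cntf and Lif signal through Lifr and Il6st to the JAK kinases and Stat3. In peripheral nerve, Cntf is known as a product of myelinating Schwann cells, and Ngfr as a receptor of immature and nonmyelinating ones.

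Promoter sequence is shown for the pair of members with the lowest ratios between the libraries, Cntf and Ngfr. The windows are the 250 bases before the annotated start from RefSeq on GRCm38.p6, both on the minus strand and written 5′ to 3′, at chr19:12765633-12765882 for Cntf and chr11:95587699-95587948 for Ngfr. Capitals mark CACCT on either strand (AGGTG when read on the other), the letters that Zeb-family zinc fingers are known to bind.
Cntf: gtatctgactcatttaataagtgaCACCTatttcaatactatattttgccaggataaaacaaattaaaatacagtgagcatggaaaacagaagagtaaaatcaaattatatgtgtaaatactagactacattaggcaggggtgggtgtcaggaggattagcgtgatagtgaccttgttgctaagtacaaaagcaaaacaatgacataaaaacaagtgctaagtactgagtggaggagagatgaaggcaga
Ngfr: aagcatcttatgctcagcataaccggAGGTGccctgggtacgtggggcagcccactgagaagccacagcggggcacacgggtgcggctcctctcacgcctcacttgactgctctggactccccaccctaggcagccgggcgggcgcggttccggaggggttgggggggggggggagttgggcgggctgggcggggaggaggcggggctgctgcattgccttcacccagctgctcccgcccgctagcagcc
Each window held 1 match, which began 226 bases before the start in Cntf and 224 bases before it in Ngfr. Windows were taken for 8 of the 9 members, 16 windows in all, and 7 of them (43.8%) held CACCT on either strand. Of 32851 promoter windows of the same length, 46.0% held it. No window was matched for Gfra3.

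The libraries held an estimated 29728140 reads on RefSeq transcripts in control nerves and 20287174 in Zeb2 cKO nerves. Zeb2 itself was at 34.4 FPKM in control nerves and 19.5 FPKM in Zeb2 cKO nerves, in the direction of the labels, and its row counts the whole transcript, deleted exons or not. Schwann cell identity was present in both: Sox10, the lineage transcription factor, was at 139 FPKM in control nerves and 69.2 FPKM in Zeb2 cKO nerves. All 9 matched genes of the lineage list were measured, with a summed level of 1052 FPKM in control nerves and 421 FPKM in Zeb2 cKO nerves. Fewer cells of a type and less RNA per cell cannot be told apart in such bulk samples. A gene is called 2-fold apart where log2((FPKM Zeb2 cKO + 1)/(FPKM control + 1)) was at least 1 in size, and a gene is measured where its mean was at least 1 FPKM. Of 12903 measured genes, 8.59% were higher by 2-fold or more and 6.25% lower by 2-fold or more, and the median log2 ratio was 0.18. These are 1109 and 806 genes, and after the Zeb2 cKO FPKM were scaled to that median gene the counts were 807 and 940.

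Cntf and Ngfr were lower in Zeb2 cKO nerves, Lif was higher, and the other members either lay within 2-fold or were near the floor of detection. Of the 9 members, 5 were measured by this rule (Ngfr, Cntf, Lif, Gfra1 and Gfra3). Among those 5, 1 was higher by 2-fold or more and 2 were lower by as much, against the shares of all genes given above. The other 4, Bdnf, Ntf3, Gdnf and Artn, had means below 1 FPKM. A gene can pass this filter through its higher library alone, as Lif and Gfra3 did.

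**Figure D1:**
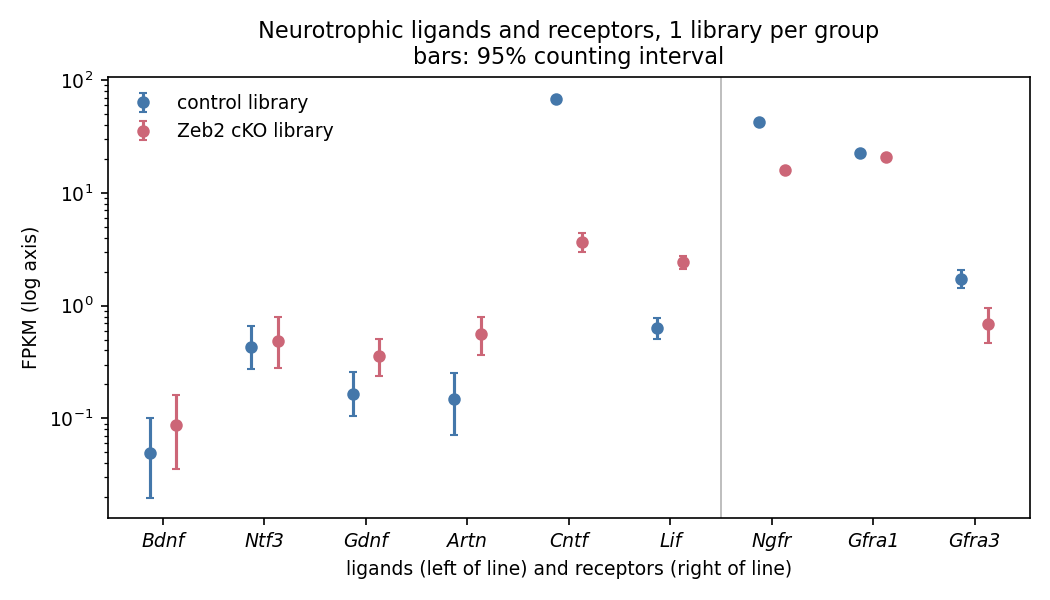
FPKM (log axis) of the 9 members in control nerves and the Zeb2 cKO library, with ligands left and receptors right of the line and bars for the 95% counting interval. Cntf shows the widest gap, from 68.5 FPKM in control nerves to 3.64 FPKM in Zeb2 cKO nerves, and Bdnf, Ntf3, Gdnf and Artn lie below 1 FPKM in both libraries.

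Cntf, ciliary neurotrophic factor (chromosome 19, 12838018 to 12840122, mm9), was at 68.5 FPKM in control nerves (about 2939 reads) and at 3.64 FPKM in Zeb2 cKO nerves (about 106 reads). It was the most abundant member in control nerves, above 95.6% of all genes there, and stood above 53.2% of genes in Zeb2 cKO nerves. The ratio was 18.8-fold lower (interval 15.6 to 23.1), with a log2 ratio of -3.91, and 86 of the 12903 measured genes had a lower log2 ratio. The row of U05342 overlaps Cntf and runs on across its neighbour Zfp91. U05342 was at 0.485 FPKM in control nerves and 0.0505 FPKM in Zeb2 cKO nerves, so little signal was assigned to it. Zfp91, whose row does not reach Cntf, was at 26.7 FPKM in control nerves and 24.4 FPKM in Zeb2 cKO nerves. The low Cntf value was therefore not shared by the adjacent gene.

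The 12 markers of myelinating Schwann cells moved in the direction of Cntf: all 12 were 2-fold or more lower, and their summed level was 16673 FPKM in control nerves and 676 FPKM in Zeb2 cKO nerves. Pmp22, a myelin membrane protein gene and the most abundant of them, was at 12153 and 471 FPKM, and Pmp2, a lipid-binding myelin protein gene, at 1145 and 9.63 FPKM. Their part in the Cntf value was not tested. Set against Sox10, Cntf was 9.37-fold lower in Zeb2 cKO nerves. Markers of skeletal muscle, a tissue beside the nerve, were also lower. All 19 measured muscle markers were 2-fold or more lower, their summed level was 9208 FPKM in control nerves and 1140 FPKM in Zeb2 cKO nerves, and none of the 20 listed was at 0. Acta1, skeletal actin, was at 1879 and 193 FPKM, and Mylpf, a fast myosin light chain, at 1728 and 229 FPKM. Their part in the values of the members was not tested.

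Lif, leukemia inhibitory factor, a cytokine of the Cntf family (chromosome 11, 4157571 to 4172517), went the other way. It was at 0.630 FPKM in control nerves (about 88 reads) and 2.43 FPKM in Zeb2 cKO nerves (about 224 reads). That is a ratio of 3.86 (interval 2.91 to 4.84) and a log2 ratio of 1.08, which 955 measured genes exceeded. Cntf and Lif thus came close to each other in Zeb2 cKO nerves, at 3.64 and 2.43 FPKM, whereas in control nerves Cntf was far higher. Lif did not stay 2-fold apart when the Zeb2 cKO FPKM was scaled to the median gene (log2 ratio 0.95).

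The other ligands of the same family that passed the filter were higher in Zeb2 cKO nerves. Clcf1, another ligand of the Cntf receptor, was at 2.63 FPKM in control nerves and 10.7 FPKM in Zeb2 cKO nerves. Ctf1, cardiotrophin 1, was at 1.30 FPKM in control nerves and 4.17 FPKM in Zeb2 cKO nerves. Of 9 listed ligands of the Cntf and Lif family 4 were measured, 3 of them (Lif, Clcf1 and Ctf1) 2-fold or more higher and 1, Cntf, lower. Their summed level was 74.8 FPKM in control nerves and 22.5 FPKM in Zeb2 cKO nerves, since Cntf made up most of the control sum.

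Of the receptors for this family, Cntfr, Osmr and Il6st were higher in Zeb2 cKO nerves, with Cntfr furthest apart. Cntfr, the alpha receptor that binds Cntf, was at 7.52 FPKM in control nerves and 45.1 FPKM in Zeb2 cKO nerves, a ratio of 5.99 (interval 5.44 to 6.59). Osmr, the oncostatin M receptor, was at 2.51 FPKM in control nerves and 13.5 FPKM in Zeb2 cKO nerves, and Il6st, the signalling subunit gp130, was at 36.1 and 75 FPKM. Lifr, which pairs with Il6st, was at 8.95 FPKM in control nerves and 13.6 FPKM in Zeb2 cKO nerves and lay within 2-fold. In all, 3 of 6 measured receptors of this group were 2-fold or more higher and 0 lower, with a median log2 ratio of 0.96. Il6st was no longer 2-fold apart after scaling to the median gene (0.86).

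Downstream of these receptors, 3 of 11 measured genes of the JAK and Stat3 list were 2-fold or more higher and 0 lower, with a median log2 ratio of 0.45. These were the feedback inhibitors Socs1, Socs2 and Socs3, whose transcription Stat proteins are known to induce. Socs2 was at 5.98 FPKM in control nerves and 27.8 FPKM in Zeb2 cKO nerves, and Socs3 was at 2.92 and 8.65 FPKM. Socs1 was at 2.92 FPKM in control nerves and 7.14 FPKM in Zeb2 cKO nerves, and its log2 ratio became 0.90 after scaling to the median gene. Stat3 lay within 2-fold, at 16.7 and 31.2 FPKM.

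**Figure D2:**
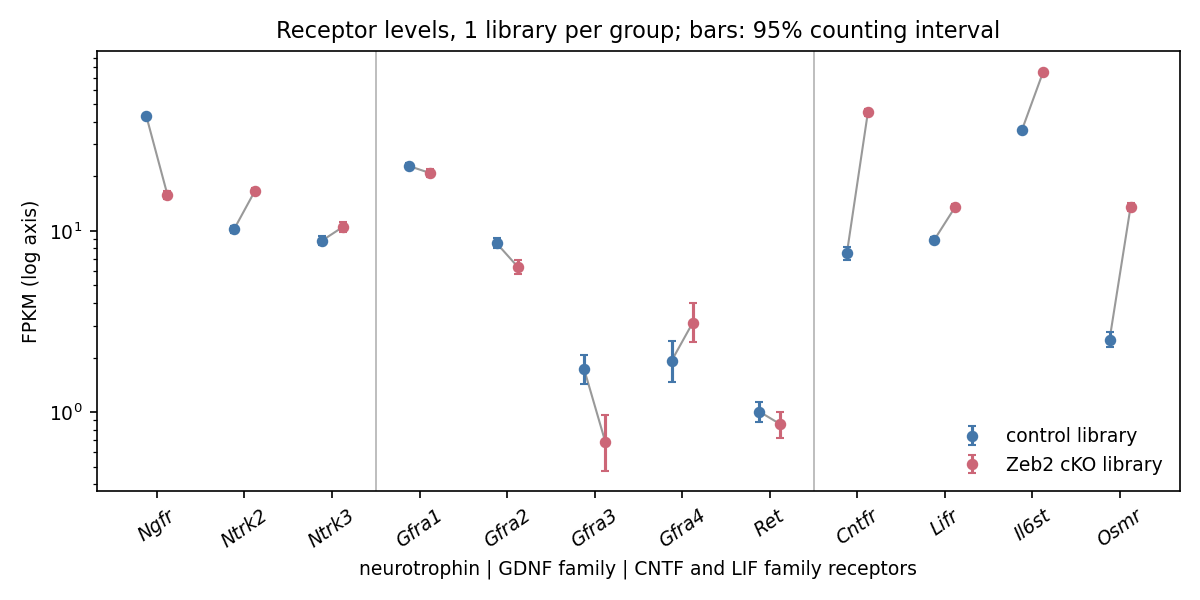
FPKM (log axis) of 12 receptor genes in control nerves and the Zeb2 cKO library, grouped as neurotrophin, GDNF family and Cntf and Lif family receptors, with bars for the 95% counting interval. Ngfr is the higher in control nerves (42.8 against 15.8 FPKM), Cntfr in Zeb2 cKO nerves (45.1 against 7.52 FPKM), and the points of Gfra1 nearly coincide.

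Among neurotrophin receptors the direction was not shared. Ngfr (chromosome 11, 95430140 to 95449012) was at 42.8 FPKM in control nerves (about 5185 reads) and 15.8 FPKM in Zeb2 cKO nerves (about 1304 reads). It was 2.71-fold lower (interval 2.55 to 2.88), with a log2 ratio of -1.38, and 564 measured genes had a lower log2 ratio. Set against Sox10, the Ngfr level was 1.35-fold lower, and on that scale it was within 2-fold. Of the 10 measured markers listed for immature and nonmyelinating Schwann cells, which include Ngfr, 4 were 2-fold or more higher and 2, the sodium channel gene Scn7a and Ngfr, were lower. Their summed level was 207 FPKM in control nerves and 677 FPKM in Zeb2 cKO nerves, the direction opposite to that of Ngfr.

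The Trk kinases Ntrk2 and Ntrk3 lay within 2-fold. Ntrk2, the receptor for Bdnf, was at 10.2 FPKM in control nerves and 16.6 FPKM in Zeb2 cKO nerves, and Ntrk3, the receptor for Ntf3, was at 8.81 and 10.5 FPKM. Sorcs2, a sortilin-related co-receptor whose row overlaps Psapl1, was at 10.6 FPKM in control nerves and 27.7 FPKM in Zeb2 cKO nerves, and its relative Sort1 was at 30.8 and 20.8 FPKM. Of 8 measured receptors and co-receptors, 1 was 2-fold or more higher (Sorcs2) and 1 was lower (Ngfr), with a median log2 ratio of 0.58.

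Bdnf and Ntf3, the neurotrophin ligands among the members, were near the floor in both libraries. Bdnf, brain-derived neurotrophic factor (chromosome 2, 109514857 to 109567200), was at 0.0496 FPKM in control nerves (about 7 reads) and 0.0872 FPKM in Zeb2 cKO nerves (about 8 reads). Ntf3, neurotrophin 3 (chromosome 6, 126051430 to 126116762), was at 0.430 FPKM in control nerves (about 22 reads) and 0.490 FPKM in Zeb2 cKO nerves (about 16 reads). The ratio was 1.76 (interval 0.532 to 5.44) for Bdnf and 1.14 (interval 0.524 to 2.13) for Ntf3, so no difference was detectable at this depth.

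Partners of p75 inside the cell showed no member at 2-fold, with 0 of 11 measured genes apart and a median log2 ratio of 0.15. Among adaptors of Trk signalling, 3 of 11 were 2-fold or more higher and 0 lower. Shc2 was at 1.99 FPKM in control nerves and 7.79 FPKM in Zeb2 cKO nerves, Shc3 at 0.477 and 2.53 FPKM, and Plcg1, a phospholipase whose row overlaps Zhx3, at 7.64 and 17.6 FPKM. Of these, Shc3 passed the filter through the Zeb2 cKO library alone. Plcg1 fell short of 2-fold after scaling to the median gene (0.94). Of 7 measured genes of neurotrophin processing, 0 were 2-fold apart, and the median log2 ratio was 0.30.

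In the GDNF family, the members differed little or were scarce, and the largest gap was in a ligand outside the members, Nrtn. Gfra1, the co-receptor for Gdnf (chromosome 19, 58311182 to 58528956), was at 22.8 FPKM in control nerves (about 2616 reads) and 20.8 FPKM in Zeb2 cKO nerves (about 1629 reads). The ratio was 0.914 (interval 0.859 to 0.973) with a log2 ratio of -0.12. The direction for Gfra1 rests on the scaling: its log2 ratio was -0.30 after scaling to the median gene and 0.85 after scaling to Sox10. It was the most abundant member in Zeb2 cKO nerves, followed by Ngfr, where the control order had been Cntf, Ngfr and Gfra1.

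Gfra3, the co-receptor for artemin (chromosome 18, 34849557 to 34880041), was at 1.72 FPKM in control nerves (about 122 reads) and 0.688 FPKM in Zeb2 cKO nerves (about 33 reads). By FPKM it was 2.50-fold lower (interval 1.70 to 3.82), but the log2 ratio with the pseudocount was -0.69, which is within 2-fold. With a pseudocount of 0.1 FPKM the log2 ratio was -1.21. Set against Sox10, Gfra3 was 1.25-fold lower.

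The ligand of Gfra3, Artn (artemin, chromosome 4, 117598767 to 117602368), was at 0.148 FPKM in control nerves (about 11 reads) and 0.558 FPKM in Zeb2 cKO nerves (about 29 reads). Gdnf, glial cell line-derived neurotrophic factor (chromosome 15, 7761011 to 7787575), was at 0.166 FPKM in control nerves (about 21 reads) and 0.356 FPKM in Zeb2 cKO nerves (about 30 reads). The ratios were 3.77 (interval 1.88 to 8.59) for Artn and 2.15 (interval 1.16 to 3.85) for Gdnf. Both intervals lie above 1, but the levels in both libraries were below 1 FPKM and the log2 ratios with the pseudocount of 1 FPKM, 0.44 and 0.22, were within 2-fold. With a pseudocount of 0.1 FPKM they were 1.41, past 2-fold, for Artn and 0.78 for Gdnf.

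Nrtn, neurturin, a GDNF family ligand that binds Gfra2, was at 0.982 FPKM in control nerves (about 36 reads) and 22.2 FPKM in Zeb2 cKO nerves (about 550 reads). It passed the filter through the Zeb2 cKO library alone. The ratio was 22.6 (interval 16.0 to 32.4). The log2 ratio with the pseudocount was 3.55, and 68 measured genes had a higher log2 ratio. Its receptor Gfra2 was at 8.55 FPKM in control nerves and 6.34 FPKM in Zeb2 cKO nerves. Ret, the shared kinase, was near 1 FPKM in both libraries, at 1.01 FPKM in control nerves and 0.857 FPKM in Zeb2 cKO nerves. Ncam1, an adhesion molecule that can act as another Gdnf receptor and whose row overlaps Gm11149, was at 14.6 FPKM in control nerves and 75.6 FPKM in Zeb2 cKO nerves. Of 6 measured GDNF family receptors, 1 (Ncam1) was 2-fold or more higher and 0 were lower, with a median log2 ratio of 0.18.

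**Figure D3:**
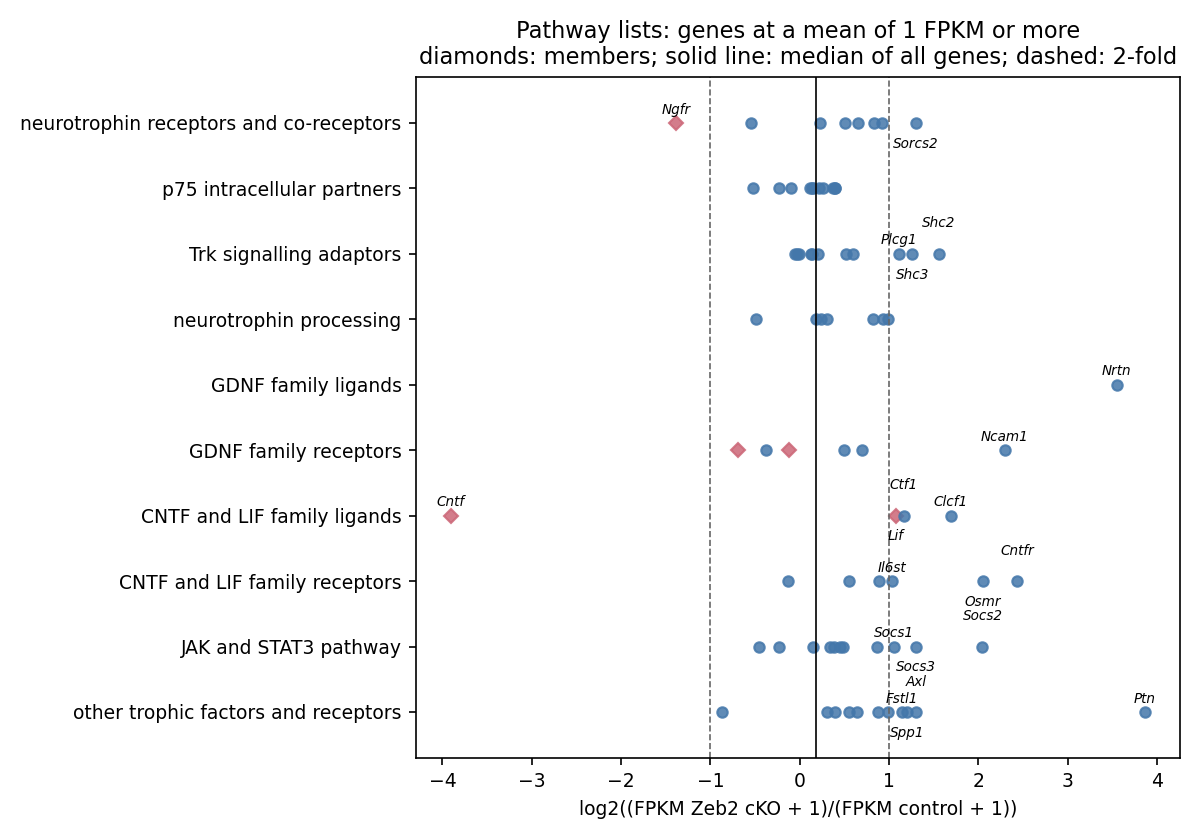
Log2 ratio with a pseudocount of 1 FPKM for each pathway gene at a mean of at least 1 FPKM, by list, 1 point per gene, with diamonds for members, dashed lines at 2-fold and a solid line at 0.18, the median of all measured genes. Cntf and Ngfr are the points left of the lower dashed line, and Ptn, Nrtn, Cntfr and Ncam1 lie furthest right.

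Over all 11 pathway lists, 91 genes that are not members were matched and 71 of them were measured. Of these 71, 18 (25.4%) were 2-fold or more higher and 0 were lower, against the 8.59% and 6.25% of all measured genes. Their median log2 ratio was 0.49, beside 0.18 for all measured genes. The lists were chosen with earlier results of these data known, so this is not an independent comparison. Leaving out the members also removed Cntf and Ngfr, the list genes that were 2-fold or more lower. Of the 18, Shc3 and Nrtn passed the filter through the Zeb2 cKO library alone. After scaling to the median gene, 14 of the 18 stayed 2-fold or more higher, and Plcg1, Il6st, Socs1 and Fstl1 did not. On that scale 807 of all 12903 measured genes were 2-fold or more higher and 940 were lower. Other cells of the nerve had higher marker levels too. Of 12 fibroblast markers 6 were 2-fold or more higher and 0 lower, with summed levels of 5653 FPKM in control nerves and 9313 FPKM in Zeb2 cKO nerves. Of 8 measured perineurial markers 7 were 2-fold or more higher, with summed levels of 88.1 FPKM in control nerves and 295 FPKM in Zeb2 cKO nerves. The 2 most abundant were the integrin gene Itgb4, at 25.8 and 28.7 FPKM, and the tight junction gene Cldn1, at 24.2 and 135 FPKM. Endothelial markers were within 2-fold for all 10 genes (176 and 293 FPKM summed), and macrophage markers for all 9 (95.5 and 115 FPKM summed). The higher direction also held for 4 of 5 measured adipocyte genes and 2 of 5 mast cell genes at the same threshold, and of 8 pericyte and smooth muscle genes 2 lay above it and 1 below. Transcripts of neurons, whose axons fill the nerve, were within 2-fold for all 7 measured genes (43.4 and 36.0 FPKM summed), and 2 of 3 measured melanocyte markers were lower. Of all these markers only Mlana, a melanocyte gene, was listed at 0, in control nerves, and their part in the ratios of the pathway genes was not tested.

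**Figure D4:**
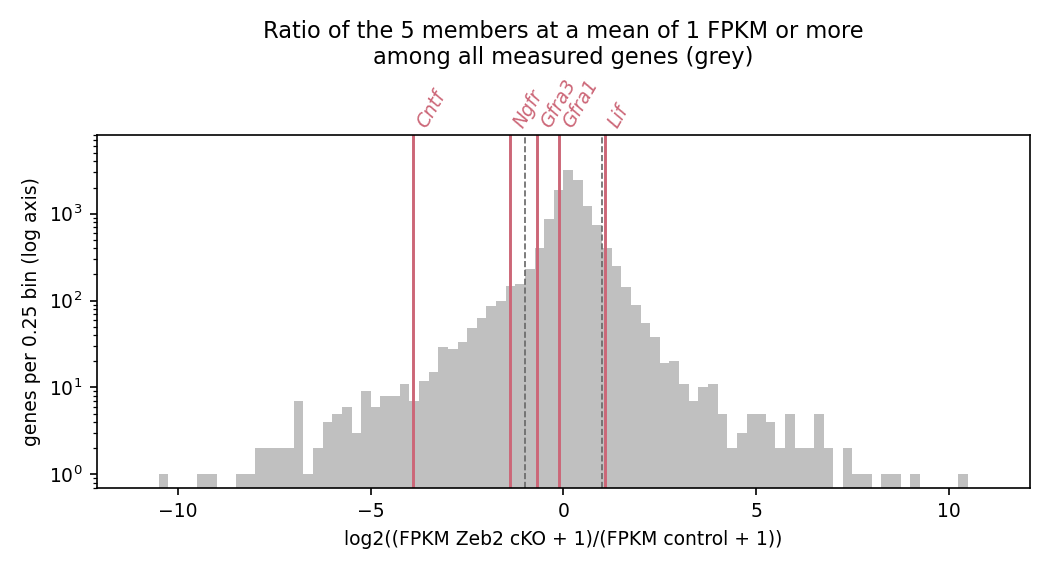
Histogram of the log2 ratio of all 12903 measured genes (grey, counts on a log axis, 0.25 per bin) with red lines at the 5 members that passed the filter and dashed lines at 2-fold. Cntf at -3.91 lies far in the lower tail, Ngfr at -1.38 and Lif at 1.08 just outside the 2-fold lines, and Gfra3 and Gfra1 between them.

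The members differ in how many transcript models the tables hold. The 6 genes Artn, Cntf, Gdnf, Gfra1, Gfra3 and Ngfr have 1 model each, and Lif, Ntf3 and Bdnf have 2, 3 and 4. For Lif, the model with the upstream start (NM_008501) held 58.1% of the gene's FPKM in control nerves, at 0.366 FPKM and about 52.3 reads, and 0.0024% in Zeb2 cKO nerves. The model with the downstream start (NM_001039537, from 4167098) was at 0.264 FPKM in control nerves and 2.43 FPKM in Zeb2 cKO nerves, and thus held nearly all of the Lif signal there. For Ntf3, NM_001164034 held 78.6% of the control signal, and NM_001164035 held nearly all of the signal in Zeb2 cKO nerves, but the gene had only about 22 and 16 reads. Bdnf, with about 7 and 8 reads, was too shallow for its models to be compared. The authors' software divided reads between models that share most of their exons, so these shares are estimates, and their error was not given in the sources used here.

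**Figure D5:**
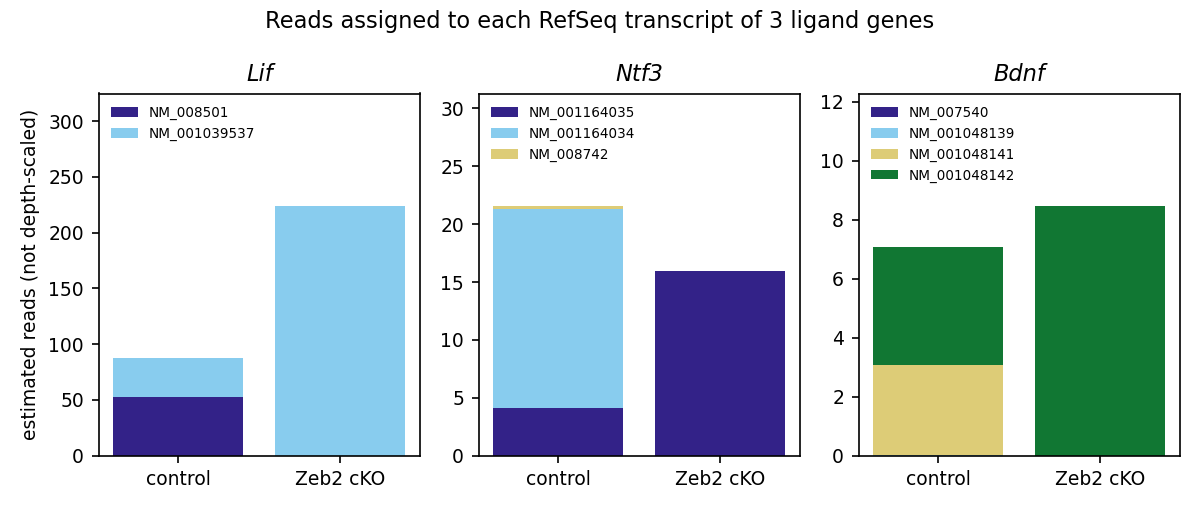
Estimated reads, not scaled for depth, assigned to each RefSeq transcript of Lif, Ntf3 and Bdnf in control nerves and the Zeb2 cKO library, 1 colour per transcript. In Lif and Ntf3 the transcript that holds most reads differs between the libraries, on about 88 and 224 reads for Lif and 22 and 16 for Ntf3.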

How the data were processed

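Sciatic nerve RNA of control and Zeb2 cKO mice was analysed from 2 tables, 1 for each genotype, each treated as 1 library. Since both samples of a genotype name the same table in the labels, tables were assigned to groups and not to numbered samples. FPKM per RefSeq transcript were computed by the authors with Cufflinks after CASAVA and TopHat on mm9, per the submitters' processing notes, which give no versions. The deposited coverage signal is mean depth per base, not scaled to library size.

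From these, transcripts flagged as other than OK in a table (295 of 28107) were dropped and FPKM was summed per symbol (Python 3.11.15, pandas 2.3.3, scipy 1.17.1). Reads were estimated as coverage times length over 52.6 bases, the median of the lowest cluster of that product (30 to 80 bases, 480 values, single-transcript genes above 2000 bases). Intervals are exact Poisson for levels and Clopper-Pearson for ratios, with a depth ratio of 1.47 (control over Zeb2 cKO). The code was tested on simulated data. Folds are ratios of FPKM without a pseudocount, and log2 ratios use a pseudocount of 1 FPKM, which understates low genes. No count model fits FPKM, and with 1 table per group no p-value was computed. Positions are mm9, counted from 1, and reads were not separated by strand.

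The members and lists were chosen with earlier results of these data known. Named genes were the members, list genes 2-fold or more apart (up to 5 a list), 7 receptors and ligands fixed by name, and Zeb2. Some genes of these lists are not reported here. The rule also names the 2 most abundant genes of each marker list, given here for the myelinating, muscle and perineurial lists and left out for the others. Sox10, Scn7a, and the comparison genes Sort1, Stat3, Gfra2, U05342 and Zfp91 were named after their values were seen. Alternatives were other pseudocounts, filters, a 1.5-fold threshold, every status, the top transcript and rescaling to the median gene. Rescaling to Sox10 was added after the data were seen.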

Additional observations from a re-analysis of the deposited data

How the results depend on the processing

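With a pseudocount of 5 FPKM, 0 members were 2-fold or more higher, 11 pathway genes were higher and their median log2 ratio was 0.36. With a pseudocount of 0.1 FPKM, 1 pathway gene was 2-fold or more lower. After rescaling to the median gene, 0 members were higher by 2-fold or more, and the pathway median was 0.35. Requiring a mean of at least 5 FPKM left 0 members higher, since Lif was dropped, and with no filter the pathway median was 0.34. At a 1.5-fold threshold 31 pathway genes were higher and 1 was lower. Counts over all genes were not computed at this threshold or at the other pseudocounts. After rescaling to Sox10, an alternative chosen after seeing the data, 1 member was 2-fold or more lower and 58 pathway genes were higher. On that scale 7612 of the 12903 measured genes were 2-fold or more higher and 411 were lower. The pathway median was 1.35, while the median of all measured genes was 1.09. Over the 6 alternatives that give a ratio, Cntf ranged from -4.20 to -3.06, Ngfr from -1.55 to -0.42 and Lif from 0.40 to 1.85. Gfra1 was negative in 5 of the 6, and the other 8 members kept their sign in all 6. A change of pseudocount cannot change a sign, and using every status left the member values as they were. Only the rescalings and, for Lif, Ntf3 and Bdnf, the top transcript could therefore have moved a sign. The log2 ratio of Ntf3 was 0.0013 after rescaling to the median gene. No paired analysis was possible because neither table is tied to a numbered sample, and no library could be left out. Depth limits Bdnf and Ntf3, whose intervals include a ratio of 1, and overlapping or near-identical rows cannot be separated.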

Other observations

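Trophic factors outside the neurotrophin, GDNF and Cntf systems were also examined. Of 11 measured genes in this list, 4 were 2-fold or more higher in Zeb2 cKO nerves and 0 were lower, with a median log2 ratio of 0.87. Ptn, pleiotrophin, a heparin-binding growth factor, was at 19.5 FPKM in control nerves (about 1404 reads) and 298 FPKM in Zeb2 cKO nerves (about 14608 reads), a ratio of 15.3 (interval 14.5 to 16.1), and 56 measured genes had a higher log2 ratio. Its close relative Mdk, midkine, whose row overlaps Chrm4, was at 72.7 and 114 FPKM and lay within 2-fold. The receptor kinase Axl was at 24.2 FPKM in control nerves and 61.1 FPKM in Zeb2 cKO nerves, and its ligand Gas6 was at 31.3 and 62.9 FPKM, just within 2-fold with the pseudocount. Spp1, osteopontin, was at 19.7 and 46.4 FPKM. Fstl1, a secreted follistatin-like protein, was at 233 FPKM in control nerves and 514 FPKM in Zeb2 cKO nerves, and was within 2-fold after scaling to the median gene (log2 ratio 0.96). Met, the receptor of hepatocyte growth factor, was at 3.38 and 1.39 FPKM, with a log2 ratio of -0.88. Mdk, Gas6 and Met were chosen after their values were seen.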
